A study of Mus musculus with 8 samples.

Results

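The core loop of the circadian clock was followed through 9 genes, Npas2, Arntl, Clock, Per1, Per2, Per3, Cry1, Cry2 and Rora, out of 43629 genes listed in the counts. These members were chosen by their known roles in the loop, as its activators and its PER and CRY repressors, and they were chosen with results of these same 8 libraries in view. Their fold changes and adjusted p-values therefore say where each gene stood among all genes and are no independent support. Messenger RNA was sequenced from 3T3-L1 adipocytes, an established mouse fibroblast line that becomes fat cells when given insulin, dexamethasone, isobutylmethylxanthine and rosiglitazone. From day 8 after this induction, which all cultures received, cells were left untreated, or received 2 µM A66, an inhibitor selective for the PI3K catalytic subunit p110α, or 0.5 mM palmitate bound to albumin, or palmitate plus A66, for 24 h. Each of the 4 groups held 2 libraries, all from a single cell line grown in culture. The study's methods describe a lower A66 dose and a vehicle control, whereas the labels describe the control as untreated. A66 acts on a protein, so no transcript checked the labels, and every direction given for A66 rests on the sample labels.

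In this loop the protein of Arntl, also called BMAL1, pairs with CLOCK or with NPAS2, and the pair activates genes that carry E-box sequences, among them the Per and Cry genes. PER and CRY proteins accumulate and then inhibit that pair, which closes a cycle of about a day. RORα and its relatives activate Arntl, and REV-ERB proteins repress it through the same DNA element. Fat cells run this clock, and transcripts of lipid storage and release cycle with it. All libraries came from a single time after treatment, and the hour of the day at harvest is not given in the sources used here. A shift of the cycle and a change in its mean level cannot be told apart in these data.

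Promoters of the members that moved, and of Cry1, are shown to let the control sequences be seen beside the counts. They run from 250 bases before to 50 bases after a RefSeq transcript start, on GRCm38.p6, and 8 of the 9 members matched with 12 promoters. Per2 had no entry. Capitals mark matches on either strand to the E-box CACGTG, the E-box variant CACGTT, the D-box TTATGTAA bound by DBP and TEF, the cAMP element TGACGTCA, or the ROR and REV-ERB core AGGTCA. No marked matches overlapped.
Per3, chr4:151044616-151044915, minus strand: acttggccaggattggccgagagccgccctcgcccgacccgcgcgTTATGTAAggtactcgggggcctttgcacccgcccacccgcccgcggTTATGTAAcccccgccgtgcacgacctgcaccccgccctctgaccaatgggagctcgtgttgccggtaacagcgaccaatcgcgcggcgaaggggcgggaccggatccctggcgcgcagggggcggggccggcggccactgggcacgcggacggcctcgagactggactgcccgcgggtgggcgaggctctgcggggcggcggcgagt
Per1, chr11:69098699-69098998, plus strand: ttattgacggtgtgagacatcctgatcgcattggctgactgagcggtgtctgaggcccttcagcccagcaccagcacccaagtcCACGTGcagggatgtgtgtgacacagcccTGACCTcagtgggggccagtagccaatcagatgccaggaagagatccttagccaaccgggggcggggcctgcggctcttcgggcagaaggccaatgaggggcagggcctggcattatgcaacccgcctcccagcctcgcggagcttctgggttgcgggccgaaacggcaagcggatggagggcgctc
Cry1, chr10:85185005-85185304, minus strand: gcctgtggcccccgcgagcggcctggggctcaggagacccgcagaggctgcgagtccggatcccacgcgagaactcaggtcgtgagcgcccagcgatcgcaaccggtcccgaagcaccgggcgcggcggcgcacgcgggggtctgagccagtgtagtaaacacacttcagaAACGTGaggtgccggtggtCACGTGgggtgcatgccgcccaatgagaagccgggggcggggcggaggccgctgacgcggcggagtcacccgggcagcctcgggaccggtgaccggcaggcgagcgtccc
Arntl, chr7:113207261-113207560, plus strand: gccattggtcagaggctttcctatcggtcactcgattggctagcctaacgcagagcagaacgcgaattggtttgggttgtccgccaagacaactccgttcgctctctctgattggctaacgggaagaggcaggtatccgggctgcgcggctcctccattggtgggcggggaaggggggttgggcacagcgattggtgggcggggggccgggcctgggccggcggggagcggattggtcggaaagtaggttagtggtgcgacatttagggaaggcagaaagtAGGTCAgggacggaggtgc
Npas2, chr1:39194022-39194321, plus strand: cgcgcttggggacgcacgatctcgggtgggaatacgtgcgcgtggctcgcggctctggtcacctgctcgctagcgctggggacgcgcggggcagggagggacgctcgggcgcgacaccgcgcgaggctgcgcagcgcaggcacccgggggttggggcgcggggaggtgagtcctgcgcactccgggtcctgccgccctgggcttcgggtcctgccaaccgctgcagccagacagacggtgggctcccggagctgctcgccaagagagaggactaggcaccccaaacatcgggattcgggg
The Per3 promoter held 2 D-boxes, whose first bases lay 205 and 158 bases before the start, and 0.938% of all 32851 promoters in the RefSeq table held this sequence. The Per1 promoter shown held an E-box 166 bases before its start and, on the opposite strand, an AGGTCA 137 bases before it, and the other Per1 promoter in the table held no match. Cry1 carried an E-box 60 bases and the variant box 79 bases before its start. E-boxes were found in 7.15% of all promoters, the variant in 4.68%, AGGTCA in 16.3% and the cAMP element in 1.79%. The Arntl promoter shown held AGGTCA 31 bases after its start, and the other Arntl promoter, which begins upstream, held no match. None of these letters occurred in the Npas2 or Rora windows. Among promoters that are not shown, Cry2 held the variant box, and 1 of the 3 Clock promoters held AGGTCA.

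Library totals ranged from 42247091 to 57529803 counts, so that 3 counts, taken here as the floor, correspond to 0.0521 to 0.0710 CPM, which are counts scaled to a library of 1000000. Levels are in CPM after TMM scaling, which adjusts for the composition of each library. Adipocyte markers had a summed level of 15392 to 18357 CPM over 10 genes. Single markers ran from Lep, at 10.9 to 16.1 CPM, to Lpl, at 8162 to 9922 CPM, so Lpl weighs most in this sum. The preadipocyte marker Dlk1, the macrophage marker Adgre1 and the endothelial marker Kdr were listed at 0 in all libraries, as was Ppp1ca, a phosphatase subunit that most cells express, so a 0 in this table is weak evidence of absence. The other preadipocyte and fibroblast markers ranged from Cd34, at 0.173 to 0.392 CPM, to Col3a1, at 2952 to 3536 CPM. In bulk RNA, fewer cells of a type and less RNA per cell cannot be told apart. The methods call the replicates biological repeats without saying whether they were differentiated separately, and the p-values measure only the spread between these libraries.

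Among the activators, Npas2 was the member that differed most between groups. Npas2, at chr1:39193731-39363236 on the plus strand (GRCm38, as are all gene positions given here), encodes a partner of BMAL1 that can stand in for CLOCK. Its level was 1.15 and 1.22 CPM in untreated cells, 0.463 and 0.170 under A66, 0.622 and 1.04 under palmitate, and 0.288 and 0.100 under both agents. Every library with A66 lay below every library without it, and the highest A66 value, 0.463, was under the lowest value without A66, 0.622. The share of all genes that separate in this way was not computed. These levels rested on few reads, with counts of 49 and 66 for the untreated libraries, 24 and 8 under A66, 36 and 56 under palmitate, and 14 and 5 under both agents. The log2 fold change was -1.87 (SE 0.42, 95% interval -2.74 to -1.01) for A66 against untreated cells, with an adjusted p of 0.0176 (edgeR, Benjamini-Hochberg over all genes). In palmitate-treated cells the difference with A66 was -2.09 (SE 0.50, interval -3.13 to -1.04), with an adjusted p of 0.0219. Leaving out 1 library in turn moved these fold changes between -2.78 (without A66 replicate 1) and -1.35 (without A66 replicate 2), and in palmitate-treated cells between -3.02 (without palmitate plus A66 replicate 1) and -1.52 (without palmitate plus A66 replicate 2). Palmitate alone left Npas2 at 70.2% of the untreated mean, with replicates at 52.4% and 88.0% and an adjusted p of 0.655.

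Arntl, at chr7:113207465-113314126 on the plus strand, encodes BMAL1, the obligate activator. It measured 27.4 and 27.6 CPM in untreated cells, 23.5 and 21.0 under A66, 24.0 and 26.7 under palmitate, and 18.8 and 18.7 under both agents. Its lowest values were those of palmitate plus A66, and that group overlapped with no other. Arntl fell with A66 both without palmitate (log2 fold change -0.30, SE 0.07, adjusted p = 0.0262) and with it (log2 fold change -0.43, SE 0.07, adjusted p = 0.00157). The group with both agents stood at 68.3% of the untreated mean, against 81.0% with A66 and 92.2% with palmitate. Palmitate added to A66 gave a log2 fold change of -0.25 (SE 0.07, interval -0.40 to -0.09), which missed the threshold after adjustment (adjusted p = 0.0821). The annotation places an antisense gene, Gm45355, on Arntl exons. It has no row among the counts used here, and how strand was handled in counting is not stated in the sources used here, so whether its reads were counted for Arntl cannot be told.

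Clock, at chr5:76209868-76304792 on the minus strand, encodes the usual partner of BMAL1 and had the highest CPM of the members. It gave 155.6 and 152.2 CPM in untreated cells, 146.3 and 138.7 under A66, 147.9 and 145.7 under palmitate, and 132.5 and 136.1 under both agents. Both A66 groups lay below their counterparts without overlap, but by log2 fold changes of only -0.11 (SE 0.04, adjusted p = 0.256) and -0.13 (SE 0.04, adjusted p = 0.116), neither of which passed the test. The 95% intervals, -0.20 to -0.02 and -0.22 to -0.04, leave room for a fall of no more than 0.22 on the log2 scale. Per kilobase of exon, Npas2 stood at 2.12% and 2.30% of Clock in untreated cells. That share was 0.907% and 0.352% under A66, 1.20% and 2.05% under palmitate, and 0.624% and 0.211% under both agents.

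**Figure D1:**
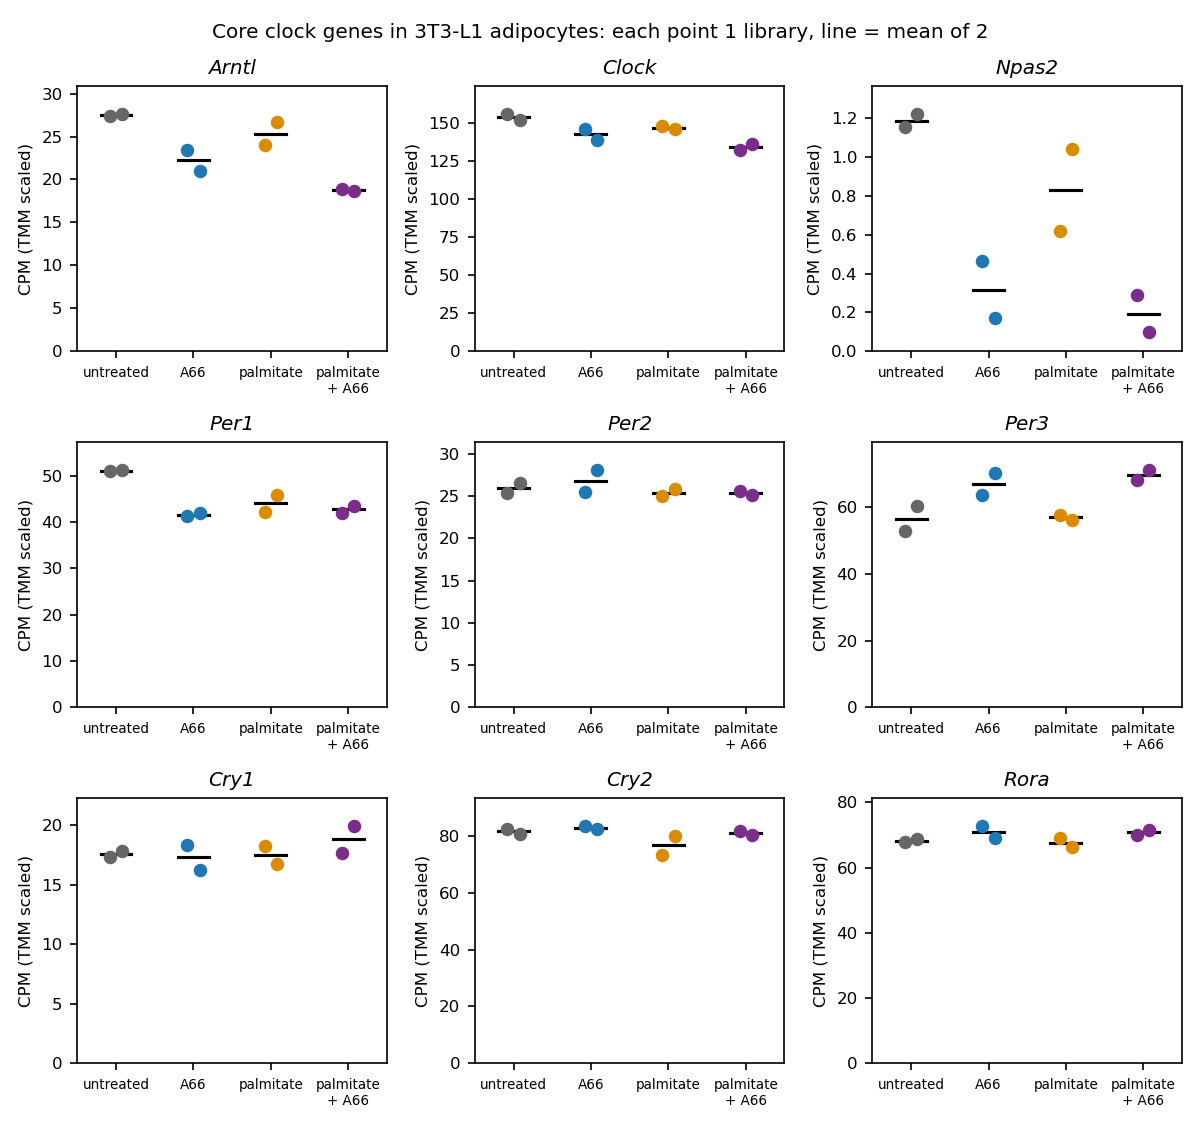
Level of each member in every library, in CPM after TMM scaling on axes that start at 0, by group; each point is 1 library and each line the mean of 2. Npas2 and Arntl sat lower in the A66 groups, and Per3 sat higher. Per1 stood highest in untreated cells, at 51.0 and 51.1 CPM, as did Npas2, Arntl and Clock.

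The 3 Period genes, which encode the inhibitors that enter the nucleus with the cryptochromes, did not move together. Per1, at chr11:69095217-69109960 on the plus strand, was at 51.0 and 51.1 CPM in untreated cells, 41.3 and 41.8 under A66, 42.1 and 45.9 under palmitate, and 42.0 and 43.5 under both agents. All 6 treated libraries lay below both untreated ones, which was also so for Npas2, Arntl and Clock. Per1 fell with A66 (log2 fold change -0.29, SE 0.05, adjusted p = 0.00268) and with palmitate (log2 fold change -0.21, SE 0.05, adjusted p = 0.0477), in comparisons that share the untreated libraries. Added to palmitate, A66 gave -0.04 (SE 0.05, interval -0.15 to 0.07, adjusted p = 0.796). Added to A66, palmitate gave 0.04 (SE 0.05, interval -0.07 to 0.15, adjusted p = 0.810).

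Per3, at chr4:151003652-151044665 on the minus strand, went the opposite way. Its levels were 53.0 and 60.4 CPM in untreated cells, 63.7 and 70.5 under A66, 57.6 and 56.3 under palmitate, and 68.3 and 71.1 under both agents. Every library with A66 lay above every library without it, whether or not palmitate was present. Npas2 and Arntl separated likewise in the other direction, and the share of all genes that do so was not computed. The log2 fold change was 0.24 (SE 0.06, adjusted p = 0.0334) against untreated cells and 0.29 (SE 0.06, adjusted p = 0.00569) against palmitate. Leaving out 1 library at a time, Per3 ran from 0.15 (without untreated replicate 1, adjusted p = 0.146) to 0.35 (without untreated replicate 2) against untreated cells, and from 0.26 to 0.32 against palmitate. Palmitate itself gave 0.0051 (SE 0.06, interval -0.12 to 0.13). Set against Per1 per kilobase of exon, Per3 was at 0.609 and 0.692 in untreated cells, 0.903 and 0.987 under A66, 0.801 and 0.719 under palmitate, and 0.952 and 0.958 under both agents. This ratio was not tested.

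Per2, at chr1:91415982-91459324 on the minus strand, held between 25.0 and 28.0 CPM in all 8 libraries. It gave 25.4 and 26.5 CPM in untreated cells, 25.5 and 28.0 under A66, 25.0 and 25.8 under palmitate, and 25.6 and 25.2 under both agents. Its groups overlapped in all 4 comparisons, and no fold change passed the test. The interval for A66 against untreated cells was -0.10 to 0.19 on the log2 scale, and that for A66 in palmitate-treated cells was -0.14 to 0.14.

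The cryptochromes, the partners of PER proteins and the stronger direct inhibitors of CLOCK and BMAL1, showed no change that passed the test. Cry1, at chr10:85131700-85185064 on the minus strand, was at 17.4 and 17.8 CPM in untreated cells, 18.4 and 16.2 under A66, 18.2 and 16.7 under palmitate, and 17.7 and 19.9 under both agents. Under A66 and under both agents its replicates lay farther apart than any pair of group means. The intervals ran from -0.19 to 0.15 for A66 against untreated cells and from -0.07 to 0.28 for A66 in palmitate-treated cells. Cry2, at chr2:92403646-92434043 on the minus strand, was at 82.6 and 80.8 CPM in untreated cells, 83.4 and 82.4 under A66, 73.2 and 80.1 under palmitate, and 81.7 and 80.3 under both agents. The palmitate libraries were the lowest, with a log2 fold change of -0.09 (SE 0.05, interval -0.19 to 0.01, adjusted p = 0.447). The antisense gene D930015M05Rik on Cry2 exons had 1 count over all libraries.

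Rora, at chr9:68653786-69388246 on the plus strand, encodes RORα, the activator of Arntl in the second arm of the loop. Its levels were 68.0 and 68.7 CPM in untreated cells, 72.7 and 69.0 under A66, 69.0 and 66.4 under palmitate, and 70.1 and 71.6 under both agents. Both A66 groups lay just above their counterparts, by log2 fold changes of 0.06 (SE 0.05, interval -0.04 to 0.15) and 0.07 (SE 0.05, interval -0.03 to 0.16), and neither passed the test. The antisense gene Gm15511 on Rora exons had 0 counts.

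**Figure D2:**
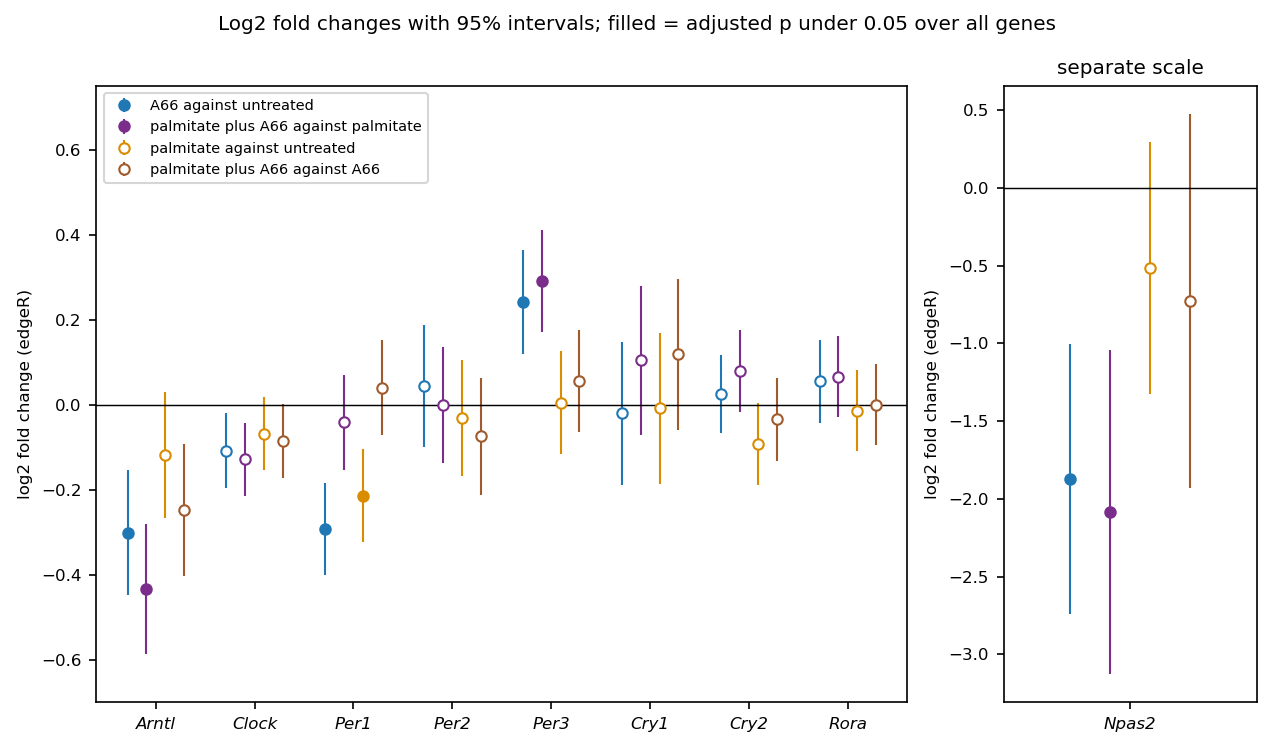
Log2 fold change of each member in 4 comparisons, with 95% intervals from the edgeR fit; filled points have an adjusted p under 0.05 over all genes, and Npas2 has an axis of its own. The filled points are Arntl, Per1, Per3 and Npas2 for A66 against untreated cells, Arntl, Per3 and Npas2 for A66 in palmitate-treated cells, and Per1 for palmitate against untreated cells.

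Counted over the loop, A66 against untreated cells gave 4 of 9 members past the threshold, 3 lower and 1 higher, beside 1.84% of the 14158 genes tested. Groups did not overlap for 6 of the 9, beside 42.7% of all genes. The median log2 fold change of the members was -0.020, against -0.0011 over all genes. With A66 replicate 2 left out only Per1 was called, and adjusted p-values were 0.255 for Npas2, 0.405 for Arntl and 0.458 for Per3. Per1 had an adjusted p of 0.0504 without A66 replicate 1 and Per3 one of 0.146 without untreated replicate 1, and DESeq2 called only Per1 (adjusted p of 0.0656 for Arntl, 0.0623 for Per3, and none given for Npas2, whose unadjusted p was 0.000776).

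A66 in palmitate-treated cells compares the other 4 libraries, although the spread behind its errors was estimated over all 8. It gave 3 of 9 members past the threshold, 2 lower and 1 higher, beside 2.81% of the 14587 genes tested, and 6 of 9 without overlap, beside 44.3%. Npas2, Arntl and Per3 each had the sign they had without palmitate. Without palmitate replicate 2 or without palmitate plus A66 replicate 2 only Arntl was called, with adjusted p-values of 0.259 and 0.243 for Npas2 and 0.0683 and 0.0663 for Per3. DESeq2 called Arntl and Per3 and gave Npas2 no adjusted p (unadjusted p = 0.000382).

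For palmitate against untreated cells, 1 of 9 members, Per1, passed the threshold, beside 1.17% of genes, and 5 of 9 groups did not overlap, beside 40.5%. The Per1 call was lost when only the 4 libraries compared were fitted (adjusted p = 0.0722), without untreated replicate 1 (0.179), without untreated replicate 2 (0.136) and without palmitate replicate 1 (0.465). For palmitate added to A66, edgeR called 0 of 9 members, beside 2.73% of genes. In that test 1 member, Arntl, was at an unadjusted p under 0.05, beside 14.6% of genes. DESeq2 called 0 of the 8 members other than Npas2, to which it gave no adjusted p. Groups did not overlap for 4 of 9, beside 46.6%.

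Whether the effect of A66 differed with palmitate present was tested as an interaction. It called 0 of 9 members in edgeR, beside 0.00686% of genes (1 gene). DESeq2, which called 22 genes, gave an adjusted p to 1 member alone, Clock (0.942), so its count says nothing of the others. Per1 was the only member with an unadjusted p under 0.05 in edgeR, beside 7.92% of all genes. Its interaction was 0.25 (SE 0.08, unadjusted p = 0.00284, adjusted p = 0.402). The interaction of Arntl was -0.13 (SE 0.10, adjusted p = 0.818), and that of Npas2, -0.21 (SE 0.69, adjusted p = 0.973), was too imprecise at this depth to place.

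Set on a scale that allows genes to be compared, CPM per kilobase of exon (RPKM), Cry2 led in untreated cells at 12.9 ± 0.2 (SD, n = 2). It was followed by Clock at 11.2 ± 0.18, Per1 at 9.07 ± 0.024, Per3 at 5.90 ± 0.54, Cry1 at 5.26 ± 0.096, Rora at 5.23 ± 0.036, Per2 at 4.43 ± 0.14, Arntl at 3.65 ± 0.020 and Npas2 at 0.248 ± 0.0098. Cry1 and Rora cannot be ordered beyond their spread, as Cry1 was the higher in 3 of 8 libraries. Every other neighbour in this order kept its place in all 8 libraries, although pooled over treatments the ranges of Per1 and Per3 overlapped, as did those of Per3 and Cry1. Npas2 was far below the rest, between 0.021 and 0.255 RPKM, while Arntl ranged from 2.48 to 3.66.

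**Figure D3:**
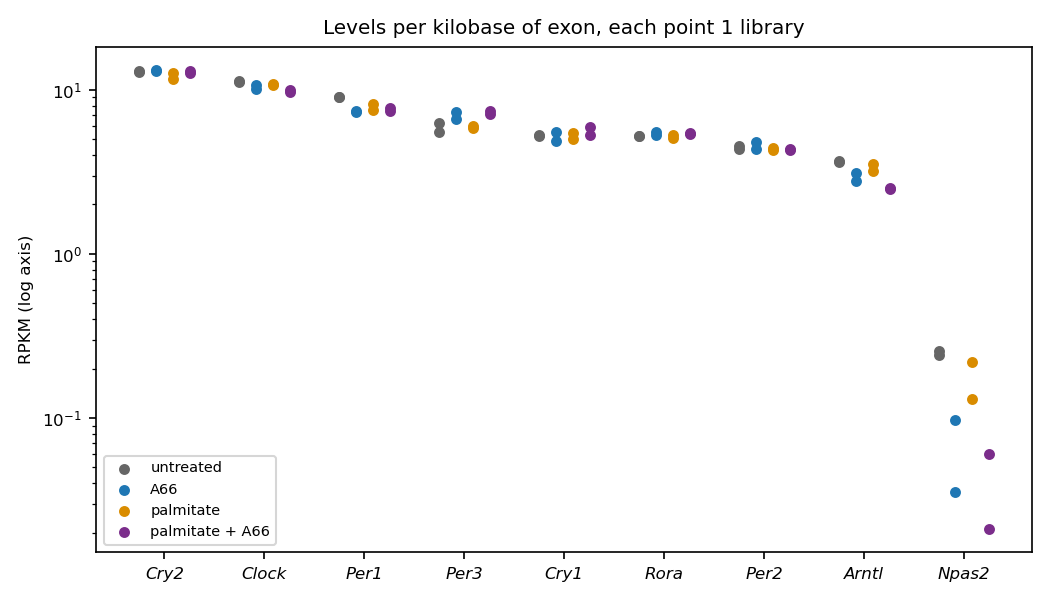
Level of each member per kilobase of exon in RPKM on a log axis, ordered by the untreated mean; each point is 1 library, coloured by group. Npas2 lies apart from all other members, at 0.021 to 0.255 RPKM, and is the member whose libraries spread most.

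The second arm of the clock and its output factors, were read from a list of 11 genes. Of 10 tested (Rorb was at 0), 4 rose and 0 fell for A66 against untreated cells, and 3 rose and 0 fell for A66 in palmitate-treated cells, beside 1.84% and 2.81% of all genes called, with medians of 0.15 and 0.14 on the log2 scale against -0.0011 and -0.00079 over all genes. Nr1d2, which encodes REV-ERBβ, a repressor of Arntl, rose from 64.1 and 66.6 CPM to 83.7 and 83.2 with A66 (log2 fold change 0.35, SE 0.05, adjusted p = 0.000101). From 70.9 and 62.8 with palmitate it rose to 95.7 and 90.7 with both agents (0.48, SE 0.05, adjusted p = 1.97e-05). Dbp, a D-box activator and a direct target of CLOCK and BMAL1, was at 10.8 and 14.4 CPM in untreated cells and at 20.2 and 18.9 with A66 (0.63, SE 0.10, adjusted p = 0.00108). With palmitate it was at 18.6 and 13.3, and with both agents at 25.7 and 24.8 (0.66, SE 0.12, adjusted p = 0.00246). The latter call was lost in DESeq2 (adjusted p = 0.0706) and without palmitate replicate 2 (0.0622).

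Tef, a relative of Dbp that binds the same D-box, rose with A66 from 158 and 163 CPM to 182 and 185 (0.20, SE 0.04, adjusted p = 0.0105), a call lost without A66 replicate 1 (0.0933) or 2 (0.172). In palmitate-treated cells Tef gave 0.11 with A66 (SE 0.04, adjusted p = 0.178) and was not called. Bhlhe40, which encodes the E-box repressor DEC1, was at 66.4 and 71.0 CPM in untreated cells, 76.5 and 79.9 under A66, 83.1 and 82.5 under palmitate, and 94.3 and 93.5 under both agents. For palmitate, Dbp gave 0.34 (SE 0.12, adjusted p = 0.229) against untreated cells and 0.37 (SE 0.12, adjusted p = 0.0988) when added to A66, neither past the threshold. Bhlhe40 alone of the 10 tested was called with palmitate, beside 1.17% and 2.73% of all genes. These calls were against untreated cells (0.27, SE 0.05, adjusted p = 0.00209) and when added to A66 (0.26, SE 0.05, adjusted p = 0.00105). Without untreated replicate 1 the first of these had an adjusted p of 0.0646, and without A66 replicate 1 the second had one of 0.0640. Its rise with A66 passed without palmitate (adjusted p = 0.0456) and with it (adjusted p = 0.0270). The former call was lost with library size scaling (0.0727), in DESeq2 (0.0912), without untreated replicate 1 (0.173) and without A66 replicate 1 (0.123) or 2 (0.419), and the latter with library size scaling (0.0561) and without each of the 4 libraries compared in turn (0.0758 to 0.162). Nr1d1, which encodes REV-ERBα and is given for its role, did not pass in any comparison, at 44.4 and 45.9 CPM in untreated cells, 45.3 and 47.5 under A66, 39.6 and 40.1 under palmitate, and 48.3 and 41.9 under both agents.

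**Figure D4:**
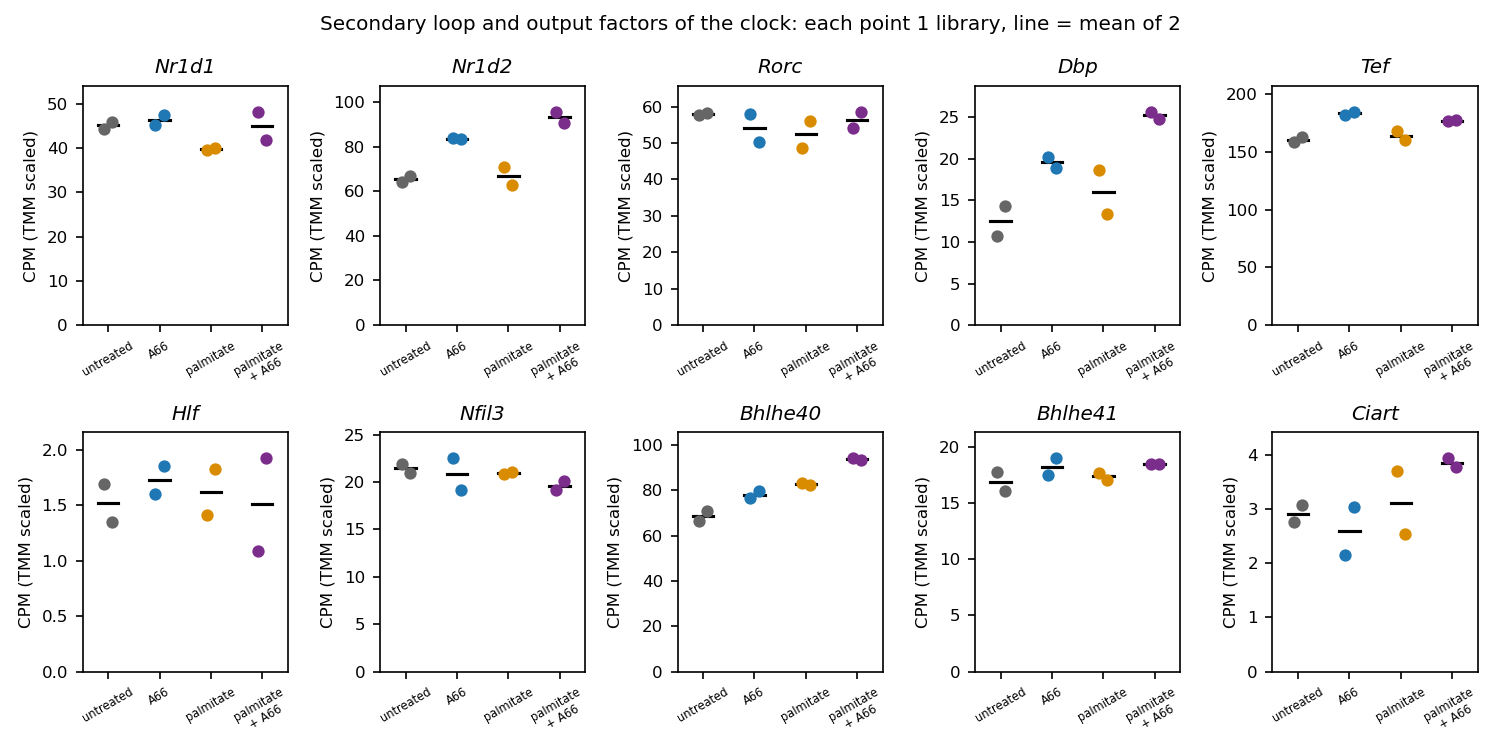
Levels of 10 genes of the second arm and clock output, in CPM after TMM scaling on axes that start at 0, by group; each point is 1 library and each line the mean of 2. Nr1d2 and Dbp sat higher in the A66 groups, and Bhlhe40 was highest with both agents, at 94.3 and 93.5 CPM.

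Genes that modify or degrade the loop's proteins were read as a list of their own. Of 20 kinases, phosphatases and ubiquitin pathway genes, 19 were tested, and edgeR and DESeq2 each called 0 for A66 against untreated cells (1.84% of all genes), with 2 at an unadjusted p under 0.05 (12.8% of all genes). Both tools also called 0 for palmitate against untreated cells and for palmitate added to A66 (1.17% and 2.73% of all genes), with 0 and 3 at that p (12.0% and 14.6%). In palmitate-treated cells 6 of 19 were at an unadjusted p under 0.05 (14.4% of all genes), and the 1 that passed the test, beside 2.81% of all genes, was Ppp5c, a phosphatase that acts on casein kinase 1ε, which was lower with A66 (log2 fold change -0.25, SE 0.05, adjusted p = 0.00815), a call lost without palmitate replicate 2 (0.0773) and without palmitate plus A66 replicate 1 (0.0510) or 2 (0.0800). Of 18 cofactors, among them Arntl2, the paralogue of Arntl, edgeR called 0 in every comparison, beside 0.00686% to 2.81% of all genes. For each A66 comparison 2 of the 18 were at an unadjusted p under 0.05, beside 12.8% and 14.4% of all genes. DESeq2 called 1 of them for A66 in palmitate-treated cells, where it called 431 genes in all. Arntl2 measured 10.5 to 11.5 CPM over the 8 libraries.

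The pattern of Npas2, the member whose group means spanned the widest range, was compared with every tested gene by the root mean square distance between log2 differences from untreated cells in the 3 treated groups. The nearest genes were Ifi44 (distance 0.477), Slfn8 (0.514), Fam166a (0.548), Rsad2 (0.567) and Gm10250 (0.600). Of these, Ifi44 and Rsad2 are known as interferon-stimulated genes. Ifi44 differed from untreated cells by -1.69 with A66, -0.26 with palmitate and -2.03 with both, against -2.03, -0.55 and -2.72 for Npas2. Apart from Ifi44, at a mean of 2.99 CPM, these genes were at or under 0.266 CPM on average. Genes this low could pass the minimum count of 10 through the groups without A66 alone. A steep fall with A66 may thus come with the filter, and the likeness is no support. The same measure placed Cebpb, an adipogenic transcription factor, nearest to Per3, at a distance of 0.00079, and Pnpla3, a lipid droplet enzyme, nearest to Arntl, at 0.0076, both singled out after their values were seen.

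Markers of other cells and of the adipocyte state were read beside the members. For A66 against untreated cells, 0 of 10 adipocyte markers were called by edgeR or DESeq2 (6 at an unadjusted p under 0.05, beside 12.8% of all genes), with sums of 17961 to 18016 CPM in untreated cells and 17667 to 18357 with A66. In palmitate-treated cells 3 of 10 were lower with A66 in edgeR and 2 in DESeq2, beside 2.81% of all genes. They were Retn (log2 fold change -0.32), Cidec (-0.23) and Slc2a4 (-0.23), and sums were 15926 to 16880 CPM with palmitate and 15392 to 16463 with both agents. Without palmitate replicate 2, Cidec was at -0.11 (adjusted p = 0.532) and Slc2a4 at -0.15 (adjusted p = 0.201), without palmitate plus A66 replicate 1 they had adjusted p-values of 0.376 and 0.122, and Cidec had one of 0.317 in DESeq2. With palmitate 1 of 10 was lower, Lpl (-0.19), beside 1.17% of all genes. With palmitate added to A66, 7 of 10 were lower in edgeR and 5 in DESeq2, beside 2.73%, with Retn (-0.32), Cidec (-0.32) and Plin1 (-0.28) the largest. The 8 preadipocyte and fibroblast markers summed to 3871 to 4669 CPM over all libraries. Of 7 tested, edgeR called 1, Col1a1, higher with palmitate (0.25) and lower with A66 in palmitate-treated cells (-0.33), beside 1.17% and 2.81% of all genes. The list medians there were 0.028 and -0.11. DESeq2 called 1 and 2 of this list in these comparisons, and 1 for the interaction. Macrophage markers summed to 2.80 to 3.70 CPM in untreated cells, 2.92 to 3.43 with A66, 4.01 to 4.41 with palmitate and 5.65 to 5.96 with both. Nearly all of this sum was Cd68, at 2.57 to 5.74 CPM, which was higher with both agents than with A66 (0.91), while the other 4 macrophage markers were each under 0.28 CPM. Endothelial markers summed to 0.346 to 0.832 CPM, and the 4 cycling markers to 36.6 to 45.2 CPM. Of the marker calls named here, those of Retn and Col1a1 passed under every alternative run, and those of Lpl, Cidec, Slc2a4, Plin1 and Cd68 were lost under at least 1. The other 4 adipocyte marker calls for palmitate added to A66 were not recomputed gene by gene. The part of these markers in the values of the members was not tested.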

How the data were processed

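Polyadenylated RNA of 8 libraries was sequenced with a stranded kit. Per the labels and methods, the authors aligned to GRCm38 with TopHat2 2.0.11, counted reads over Ensembl genes with HTSeq and deposited these counts without scaling. The strand setting and annotation used in counting are not given in the sources used here. The deposited table also holds the authors' DESeq2 output (fold changes, p-values and scores), which was not used.

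Symbols, coordinates and exon lengths came from GENCODE M21 (GRCm38), which matched 42462 of 43629 genes. Differences were tested in R 4.3.3 with edgeR 4.0.16 (quasi-likelihood, TMM, filterByExpr with a minimum count of 10, Benjamini-Hochberg over all genes, threshold 0.05, two-sided), with intervals at 95%. A66 against untreated cells was fitted on 4 libraries, and the other comparisons on all 8. The scripts were tested on simulated data. Alternatives were RLE or library size scaling, DESeq2 1.42.0, no filter, 10 counts in every library, a replicate block, other library sets and leaving out each library. Counts carry no molecular identifiers, so floors cover counting error only. Replicates differed by more than counting noise (mean chi-square per gene 6.15 to 8.99, against 1 for noise alone).

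The members and lists were chosen with earlier results of these data known. All members were named, with up to 3 called genes per list and comparison, and the 5 genes nearest in pattern to the member of widest range, on log2 CPM with 0.01 added. Bhlhe40 was named beyond this limit for A66 against untreated cells.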

Additional observations from a re-analysis of the deposited data

Results flagged for a closer look

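For Per1, the libraries with and without palmitate fell in opposite orders without and with A66. Both palmitate libraries lay below both untreated libraries, and both palmitate plus A66 libraries lay above both A66 libraries, while groups did not overlap for 40.5% and 46.6% of all genes in these comparisons. With A66 present the log2 fold change was 0.04 (SE 0.05, interval -0.07 to 0.15, adjusted p = 0.810), which is not distinguishable from no change. The test of this difference, the interaction of A66 with palmitate, gave 0.25 on the log2 scale (SE 0.08, unadjusted p = 0.00284) and did not pass after adjustment over all genes (edgeR, adjusted p = 0.402). Over the 13 alternatives the interaction of Per1 ranged from 0.19 to 0.32.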

How the results depend on the processing

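With 2 libraries a group, the Arntl call for A66 in palmitate-treated cells was the only member call that passed under every alternative, and Npas2, at 5 to 66 counts, is the member that depth limits most. Of 505 recomputed member values, 456 kept direction and side of the threshold, 15 lost their call and 34, all uncalled, changed sign. Of 220 values of named list genes, 35 lost the call. Another scaling moved 4 of 72 group means by more than their SD. The 10 count filter removed Npas2. The cause of these changes was not tested.

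Without a filter, genes called numbered 459 for A66 against untreated cells, 396 for palmitate against untreated cells, 652 for A66 in palmitate-treated cells, 664 for palmitate added to A66 and 91 for the interaction, against 261, 171, 410, 398 and 1. The interaction also gave 2 with library size scaling, 22 with DESeq2 and 3 with the replicate block, and palmitate added to A66 gave 689 when 4 libraries were fitted. DESeq2 called 1 member for A66 against untreated cells, and fitting 4 libraries called 0 for palmitate. Leaving out 1 library gave 98 to 635 genes and 1 to 4 members for A66 against untreated cells, 71 to 245 genes and 0 to 1 members for palmitate, 147 to 426 genes and 1 to 3 members for A66 in palmitate-treated cells, 107 to 346 genes for palmitate added to A66 and 0 to 10 for the interaction.

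Replicate numbers did not pair the samples: same-numbered deviations correlated at -0.15 to 0.16 over 6 pairs of groups. The replicate block changed no member call and gave 282, 195, 448 and 438 genes called for the 4 comparisons in the order above.

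Sign changes under another scaling or fit were Per3 for palmitate with library size (-0.0052), Per2 for A66 in palmitate-treated cells with 10 counts in every library (0.00085), and Rora for palmitate added to A66 with RLE (-0.0012), library size (-0.016), DESeq2 (-0.0012), no filter (-0.0013) and 4 libraries (-0.00051). Leaving out 1 library gave log2 ranges that cross 0 for A66 against untreated cells Per2 -0.023 to 0.11 and Cry1 -0.11 to 0.067, for palmitate against untreated cells Per2 -0.062 to 0.0037, Per3 -0.084 to 0.11, Cry1 -0.073 to 0.055 and Rora -0.043 to 0.017, for A66 in palmitate-treated cells Per1 -0.10 to 0.022 and Per2 -0.025 to 0.023, for palmitate added to A66 Npas2 -1.66 to 0.18, Per3 -0.016 to 0.13 and Rora -0.036 to 0.038, and for the interaction Npas2 -1.14 to 0.69, Clock -0.056 to 0.019, Per2 -0.11 to 0.027, Per3 -0.049 to 0.14, Cry2 -0.0066 to 0.12 and Rora -0.022 to 0.049.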
